A study of Mus musculus with 8 samples.

Results

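Lhx1, Pax8, Emx2, Pou3f3 and Osr2 are 5 transcription factor genes of early nephron formation, out of 24539 genes in the count table. They were chosen by role, as factors that come on while progenitors form pretubular aggregates and renal vesicles, and by measured counts, since several of them were high in the Smo knockout libraries and low in the other groups of the same table. The levels, changes and calls of the 5 genes in those comparisons therefore describe the choice, and no p-value is given for them. Emx2 and Pou3f3 passed the low-count filter through the knockout libraries. Without those libraries 3 of the 5 genes would have passed.

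RNA sequencing measured polyadenylated RNA of nephron progenitors that had been sorted by flow cytometry from mouse kidneys at E18.5, in 8 libraries with 2 per genotype. Every group carried Six2GFPcre, a transgene in which the progenitor gene Six2 drives a fusion of GFP and the Cre recombinase. The knockout (KO) genotype was Smo c/c ; Six2GFPcre, the heterozygous (Het) genotype Smo c/+ ; Six2GFPcre, the wild type (WT) Smo +/+ ; Six2GFPcre, and the activated genotype (SmoM2) Rosa26 SmoM2/+ ; Smo +/+ ; Six2GFPcre. Smo is the membrane protein that transmits Hedgehog signals, c is an allele that Cre can delete, and SmoM2 is a form that signals without ligand. Recombination therefore depended on Cre in Six2-lineage cells. Whether the replicates were separate embryos, and whether embryos were pooled, is not stated, so the spread between replicates may be technical.

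Smo itself, the targeted gene, had a mean CPM (counts scaled by library size) of 12.1 for KO, 19.2 for Het, 369 for WT and 617 for SmoM2. The Het-labelled level went against the label, so libraries are called by their labels throughout. Libraries held between 4422305 and 10305398 listed counts, and the KO-labelled libraries were the shallowest. Y-linked counts and Xist showed that both KO-labelled libraries were male, both Het-labelled libraries female, and replicate 1 male and replicate 2 female in the WT- and SmoM2-labelled groups, so sex and label cannot be told apart between KO and Het. Six2 was between 1132 and 2105 CPM in every library. The KO-labelled comparisons share libraries with each other, as do the comparisons with WT, so their values are given side by side.

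Nephrons form when Six2-positive progenitors condense, receive Wnt9b from the ureteric bud, switch on Wnt4 and Fgf8, and turn from mesenchyme into an epithelial renal vesicle. Pax8, a paired-box factor, is one of the earliest markers of the committed aggregate, and Lhx1, a LIM-homeodomain factor, is needed to pattern the vesicle and to form the tubule. Pou3f3, also called Brn1, is a POU factor of the distal side of the vesicle and of the later loop of Henle and distal tubule. Emx2 is a homeodomain factor known for its need in the ureteric bud and urogenital ridge and also found in early nephron epithelium, and Osr2 is a zinc-finger factor related to the kidney progenitor factor Osr1.

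The promoter letters of these genes are printed as a description. High KO levels were part of the choice of the genes, and control through their promoters was not tested. RefSeq promoter windows on GRCm38.p6 were matched for 4 of the 5 genes; Osr2 was not matched. They run 5′ to 3′ on the strand of the gene and, except for Emx2, end just before its start. Capitals mark CCAAT on either strand, the motif of the general factor NF-Y.
Lhx1, chr11:84525536-84525784, minus strand: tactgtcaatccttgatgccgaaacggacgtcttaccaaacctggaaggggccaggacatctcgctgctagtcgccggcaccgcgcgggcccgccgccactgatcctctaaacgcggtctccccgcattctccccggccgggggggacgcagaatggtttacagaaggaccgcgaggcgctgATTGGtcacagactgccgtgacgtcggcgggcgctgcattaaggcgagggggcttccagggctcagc
Pax8, chr2:24475600-24475849, minus strand: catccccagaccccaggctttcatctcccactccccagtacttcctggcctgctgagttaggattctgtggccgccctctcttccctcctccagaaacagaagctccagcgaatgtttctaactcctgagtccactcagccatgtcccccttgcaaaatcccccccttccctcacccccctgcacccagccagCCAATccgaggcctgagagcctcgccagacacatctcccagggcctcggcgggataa
Pou3f3, chr1:42695518-42695767, plus strand: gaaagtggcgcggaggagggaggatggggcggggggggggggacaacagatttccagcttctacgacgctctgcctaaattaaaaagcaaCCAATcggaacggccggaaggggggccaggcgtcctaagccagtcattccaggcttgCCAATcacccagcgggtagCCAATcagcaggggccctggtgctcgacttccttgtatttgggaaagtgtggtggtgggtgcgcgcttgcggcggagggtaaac
Emx2, chr19:59458657-59458686, plus strand, 30 bases around CCAAT: gagtaatagcgaCCAATcatcaagccattt
The window before the RefSeq start of Emx2 lies inside the GENCODE gene, so 30 bases around its CCAAT are printed in place of the whole. They stop short of the RefSeq start. Within 250 bases before the start, CCAAT or its reverse complement was found once in Lhx1, Pax8 and Emx2 each, and at 3 places in Pou3f3, against 33.8% of 32851 promoters that held at least 1. The motif searched for GLI, the transcription factor family of the Hedgehog pathway, was GACCACCCA. It was in 0.225% of all promoters and in none of the 4 windows. None of the 4 held CTTTGAA or CTTTGAT (TCF/LEF, 7.48% of promoters), GTGGGAA (RBPJ, 5.42%) or TAATTA (a homeodomain core, 4.84%). All searches covered both strands.

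On GRCm38, with GENCODE M21, Pax8 lies at chr2:24420560-24475599 on the minus strand in up to 12 exons. Lhx1 lies at chr11:84518284-84525535 on the minus strand in up to 5. Emx2 is at chr19:59458372-59465357 on the plus strand with 3 exons, Pou3f3 at chr1:42695768-42703176 on the plus strand with a single exon, and Osr2 at chr15:35296098-35303305 on the plus strand with 4. The deposited counts are per gene, over the exons of the authors' annotation.

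Pax8 was the most abundant of the 5 in every group. It stood at 371 and 434 CPM in the KO-labelled libraries, 270 and 298 in Het, 156 and 173 in WT, and 187 and 184 in SmoM2. No 2 groups overlapped, and the order was KO, Het, SmoM2, WT. The group means were 403 ± 44.6, 284 ± 19.9, 164 ± 12.3 and 185 ± 2.24 CPM for KO, Het, WT and SmoM2 (SD, n = 2). The summed level of KO was 2.46 times that of WT (95% counting interval 2.35 to 2.58), and the edgeR log2 change was 1.29 (SE 0.13). KO lay above Het by 0.50 (SE 0.12) and above SmoM2 by 1.12 (SE 0.13) on the log2 scale. Its Het level was above WT by 0.79 on the log2 scale (SE 0.13). In SmoM2 it was 0.17 above WT (SE 0.12).

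Lhx1 was 62.2 and 122 CPM in the KO-labelled libraries, 4.68 and 9.34 in Het, 4.66 and 10.9 in WT, and 4.50 and 6.36 in SmoM2. Both KO libraries were above all others, and the other 3 groups overlapped. The means were 92.3 ± 42.5, 7.01 ± 3.30, 7.78 ± 4.41 and 5.43 ± 1.31 CPM (SD, n = 2). The KO sum was 12.3 times the WT sum (interval 10.3 to 14.7), a log2 change of 3.58 (SE 0.42). On the log2 scale it was 3.75 above Het (SE 0.44) and 4.09 above SmoM2 (SE 0.44). Replicate 2 of Lhx1 was higher than replicate 1 in each group, by 1.97 times in KO (interval 1.70 to 2.28), 2.00 in Het (1.28 to 3.14), 2.34 in WT (1.65 to 3.35) and 1.41 in SmoM2 (0.933 to 2.15). Pax8 differed by 0.983 to 1.17 times between replicates.

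Emx2 was at 14.4 and 15.5 CPM in the KO-labelled libraries, on 65 and 71 counts. In Het it was 0.134 and 1.19 CPM, on 1 and 7 counts, in WT 0.186 and 0.109 CPM, on 2 and 1 counts, and in SmoM2 0.511 and 0.925 CPM, on 5 and 8 counts. The KO libraries stood apart from all 6 others; Het overlapped both WT and SmoM2, and SmoM2 lay above WT. The ratio of KO to WT was 99.1, with a counting interval of 33.2 to 486 because WT held 3 counts in all. The fitted log2 change was 6.48 (SE 0.66), and against Het and SmoM2 it was 4.57 (SE 0.58) and 4.36 (SE 0.54). The Het change against WT was 1.91 (SE 1.00) and that of SmoM2 2.12 (SE 0.91), both on a handful of counts.

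Pou3f3 was 8.41 and 7.18 CPM in the KO-labelled libraries, on 38 and 33 counts. In Het it was listed at 0 and 0.340 CPM, on 0 and 2 counts, in WT at 0.653 and 0.218, on 7 and 2 counts, and in SmoM2 at 0.102 and 0.231, on 1 and 2 counts. KO was above every other library, and the other groups overlapped. The ratio of KO to WT was 17.2 (interval 8.59 to 39.2), to Het 52.1 (13.9 to 438) and to SmoM2 47.9 (15.7 to 238), with 2 counts in Het and 3 in SmoM2. The fitted log2 changes were 4.07 (SE 0.61), 5.54 (SE 0.78) and 5.44 (SE 0.72), and the changes of Het and SmoM2 against WT were -1.47 (SE 1.10) and -1.37 (SE 0.98). Het and SmoM2 were both at or under the floor of 3 counts per library.

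Osr2 was 9.74 and 10.2 CPM in the KO-labelled libraries, against 0.535 and 2.04 in Het, 1.03 and 2.29 in WT, and 0.818 and 2.43 in SmoM2. KO was above all others, and Het, WT and SmoM2 overlapped. The KO sum was 6.21 times that of WT (interval 4.11 to 9.61), a log2 change of 2.60 (SE 0.57), and the changes against Het and SmoM2 were 3.01 (SE 0.62) and 2.63 (SE 0.57). Replicate 2 exceeded replicate 1 in Het by 3.81 times (1.16 to 16.2), in WT by 2.23 (1.03 to 5.12) and in SmoM2 by 2.97 (1.26 to 7.75), but was 1.05 times it in KO (0.681 to 1.62).

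**Figure D1:**
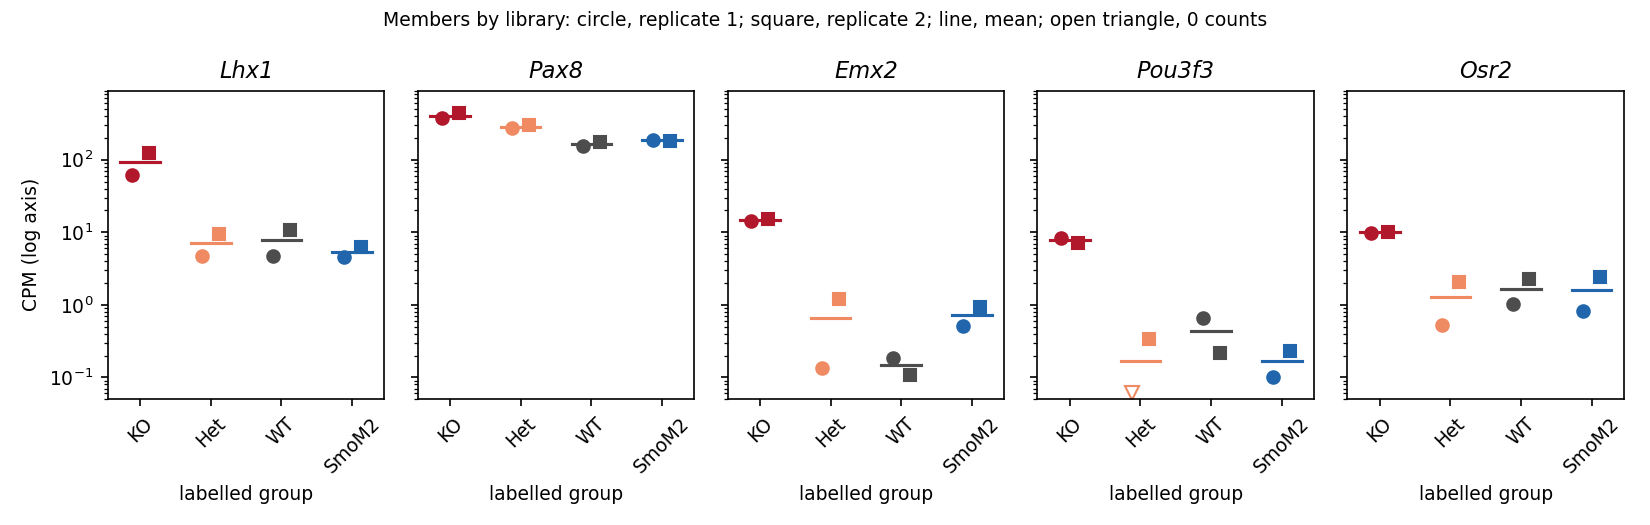
Level of each of the 5 genes in each library on a log axis of CPM, with replicates 1 and 2 as circle and square and the group mean as a line. The KO-labelled libraries lie above all 6 others for each gene, by the least for Pax8. High KO levels were part of the choice of the genes, so this separation describes the choice. Pou3f3 is listed at 0 in a Het-labelled library.

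Compared per length, on the authors' RPKM (reads scaled by gene length and library total), Pax8 led in each group, at a mean of 134 in KO, 89.5 in Het, 52.3 in WT and 57.6 in SmoM2. Lhx1 followed at 28.7, 2.06, 2.29 and 1.57. In KO, Osr2 and Emx2 came next at 4.99 ± 0.233 and 4.90 ± 0.307 (SD, n = 2), which did not differ beyond that spread, and Pou3f3 was last at 2.17 ± 0.216. In WT, Osr2 was at 0.784 ± 0.390 RPKM, Pou3f3 at 0.118 ± 0.0878 and Emx2 at 0.0470 ± 0.0195, so that the order of Pou3f3 and Emx2 was the other way round from KO but within their spread.

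By edgeR's quasi-likelihood test, adjusted over all 13459 tested genes, all 5 genes passed the threshold of 0.05 as higher in KO against WT, where 23.0% of all genes were called and 11.6% as higher. The median log2 change of the 5 was 3.58 against 0.03 for all genes. KO against Het also gave 5 of 5, where 9.43% of genes were called, with a median of 3.75 against 0.02, and KO against SmoM2 gave 5 of 5, where 32.5% were called, with a median of 4.09 against 0.04. These contrasts chose the genes, and Emx2 and Pou3f3 entered the test through the KO libraries, so the counts follow from the choice and nothing is read from them against the shares over all genes. In KO against Het, where edgeR called 4.33% of all genes higher and 5.10% lower, DESeq2 called 4 of the 5. Pax8 and Pou3f3 lost their calls there with sex as a covariate. Calls that stayed under an alternative also follow from the choice, so they are not read as support. Leaving out Het-labelled replicate 1 ended the Pax8, Pou3f3 and Osr2 calls there, leaving out KO replicate 1 the Osr2 call, leaving out KO replicate 2 those of Pax8 and Osr2, and leaving out Het replicate 2 that of Pax8; the Osr2 call of KO against SmoM2 was lost without SmoM2 replicate 1.

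Het against WT gave 1 of 5, Pax8, where 25.3% of genes were called and 13.1% as higher, with a median of -0.16 against -0.02. SmoM2 against WT gave 0 of 5 by edgeR and 0 of 5 by DESeq2, where 0.223% of genes were called (0.156% higher, 0.0669% lower). Emx2 and Pou3f3 were tested there only because of the KO libraries. The median of the 5 in SmoM2 against WT was -0.03 against 0.00 for all genes.

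Het against SmoM2 was not a contrast named in the choice of the genes, so its tests are given. The choice did use low levels of several genes in both groups, which favours small differences between them. The misses of Lhx1 and Osr2 below are therefore not read as a result. Pax8 rose in Het, with means of 284 against 185 CPM, a log2 change of 0.62 (SE 0.12) and an adjusted p of 0.0035 by edgeR, and both Het libraries were above both SmoM2 libraries. Leaving out Het replicate 2 gave an edgeR adjusted p of 0.0526 for Pax8. Lhx1, with 7.01 against 5.43 CPM, had a log2 change of 0.35 (SE 0.49, adjusted p 0.621) and Osr2 one of -0.38 (SE 0.70, adjusted p 0.711). Lhx1 and Osr2 missed the threshold and their libraries overlapped. Emx2, which passed the filter through KO, is given without a test, at a fitted change of -0.21 (SE 0.77) with overlapping libraries, and no ratio is given for Pou3f3, which was at the floor in both groups. In this comparison 33.7% of genes were called, 16.9% as higher in Het.

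Of 14 paralogues, 3 passed the filter, and 1 of the 3 was called higher in KO against WT, where 11.6% of all genes were. Pou3f1, a POU factor of the same class as Pou3f3, was 20.1 and 24.8 CPM in KO and 6.90 and 7.08 in WT, and rose by a log2 change of 1.68 (SE 0.28, edgeR adjusted p 0.00239), with no overlap. It was also higher than Het by 1.56 (adjusted p 0.0117) and than SmoM2 by 1.23 (adjusted p 0.0067). Pax2, which acts beside Pax8 in kidney commitment, averaged 603 CPM in KO and 559 in WT, a change of 0.11 (SE 0.16, adjusted p 0.646), and its libraries overlapped. Osr1, the progenitor relative of Osr2, averaged 111 and 67.3 CPM, a change of 0.72 (SE 0.44, adjusted p 0.264). The other 11 paralogues did not pass the filter.

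**Figure D2:**
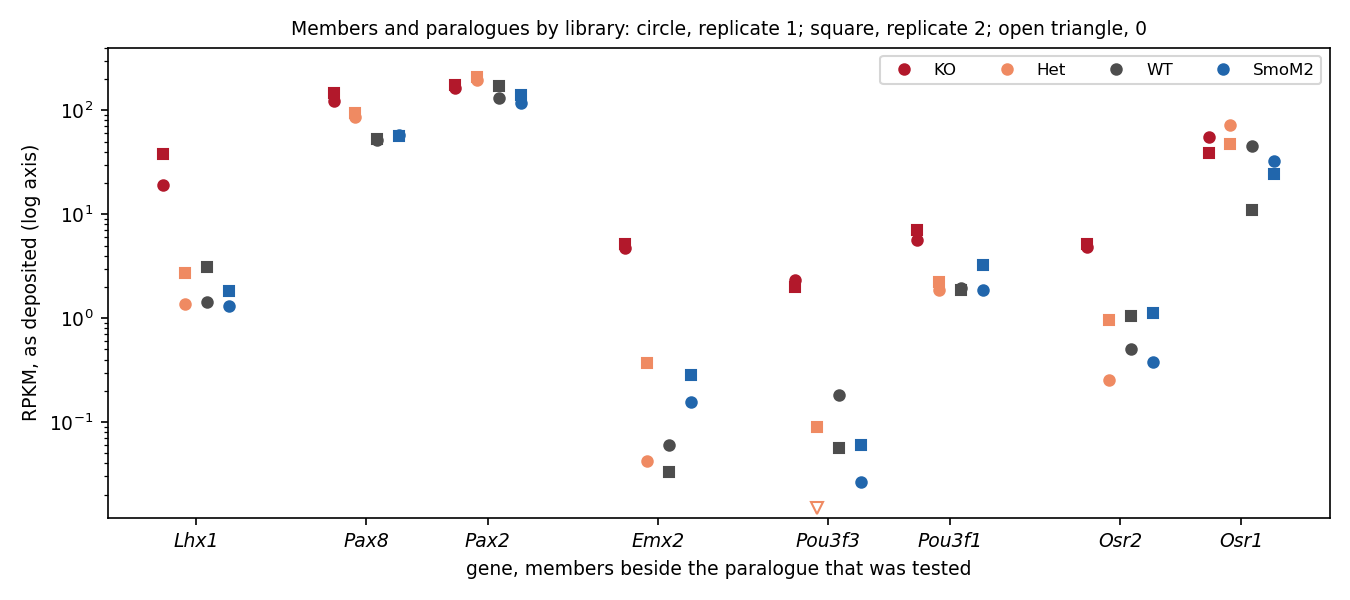
Deposited RPKM of the 5 genes and of the 3 paralogues that passed the filter, by library on a log axis, with members beside their paralogue. Pou3f1 is higher in both KO-labelled libraries than in the other 6, and Pax2 and Osr1 overlap between KO and WT.

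Lhx1os, a noncoding gene whose start lies 125 bases from that of Lhx1 on the opposite strand, averaged 11.8 CPM in KO and 1.01 in WT, and rose by 3.58 (SE 0.64, edgeR adjusted p 0.00314). Emx2os, the antisense gene of Emx2, averaged 5.16 and 0.311 CPM, a fitted change of 4.02 (SE 0.60). Like Emx2, it passed the low-count filter through the KO libraries, so no test is given for it. Emx2os shares 264 exonic bases with Emx2, and Pax8 shares 367 with Gm13415 on the opposite strand, while Lhx1 and Lhx1os share none. The sources do not state that counting used strand, so reads of Emx2 and Emx2os cannot be told apart where they overlap. The 2 noncoding neighbours of Pou3f3, Pantr1 and Pantr2, had at most 2 counts in any library. Of 11 LIM-domain and Pax partner genes, including the LIM cofactor Ldb1, KO against WT gave 1 higher (Pagr1a, 0.61) and 1 lower (Rlim, -0.73), close to the 11.6% and 11.4% of all genes, with a median of 0.01 against 0.03.

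A list of other pretubular aggregate and renal vesicle genes, 20 of its 21 symbols in the table and all 20 tested, held none of the 5 genes. It was chosen with earlier results of these data known. In KO against WT, 10 rose, none fell and 10 did not pass (11.6% of all genes called higher), with a median of 1.06 against 0.03. Fgf8, the growth factor of the aggregate, was 103 against 6.14 CPM, a log2 change of 4.09 (SE 0.28, edgeR adjusted p 2.28e-05). Fgf9, an FGF ligand of the progenitors, was 9.10 against 0.552 CPM, a change of 4.0 (SE 0.46, edgeR adjusted p 0.000305). The cell cycle gene Ccnd1 rose by 1.99 and the Notch ligands Jag1 and Dll1 by 1.94 and 1.92. Wnt4, the inducer of the epithelial transition, averaged 306 against 236 CPM, a change of 0.38 (SE 0.34, adjusted p 0.451), and did not pass. Leaving out the Het-labelled libraries gave 9 of 20, and leaving out KO replicate 1 lowered the count over all genes from 3100 to 1304. Papss2, at 1.36, was not called in any of 8 fits that left out a library, and Lef1, at 1.30, was called in 5 of 8.

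In Het against WT, Fgf8 rose by 3.46 and Fgf9 by 3.94, while Papss2, Greb1, Tmem100 and Bcat1 fell by 1.69, 1.26, 0.92 and 3.18 on the log2 scale, which makes 2 higher and 4 lower of 20, against 13.1% and 12.2% of all genes, and a median of -0.36 against -0.02. Without Het replicate 1 the count was 3 higher and 0 lower of 20. In SmoM2 against WT, 1 of 20 was called, Sox9 at 1.15 (edgeR adjusted p 0.0452), in none of 8 fits that left out a library.

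KO against Het gave 9 higher and 1 lower of 20, with a median of 1.27, against 4.33% of all genes called higher. Clec18a, at 3.66, Papss2, at 3.05, and Ccnd1, at 3.01, were among those that rose. Fgf8, at 0.63, and Fgf9, at 0.06, did not pass. This count fell to 0 without Het replicate 1, when 36 of all genes were called in place of 1269, and to 3 without KO replicate 2 and 6 without KO replicate 1. KO against SmoM2 gave 11 higher and 2 lower of 20, against 16.5% and 16.0% of all genes, and 7 in all without KO replicate 1, KO replicate 2 or SmoM2 replicate 1. Het against SmoM2 gave 4 higher and 4 lower of 20, close to the 16.9% and 16.7% of all genes; the count was 4 in all without SmoM2 replicate 2, and 5 in all without either KO replicate.

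**Figure D3:**
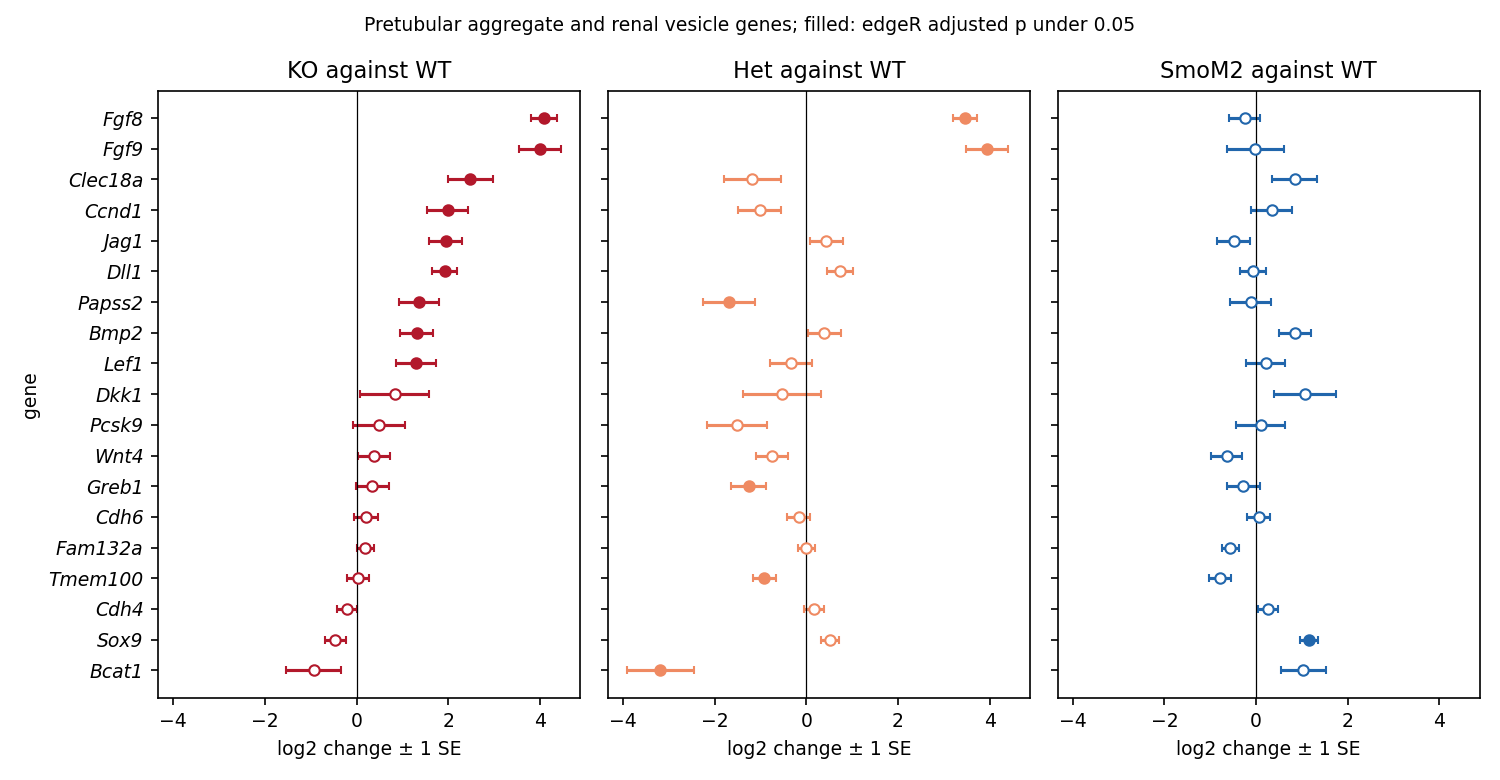
Log2 change by edgeR with bars of 1 SE for 19 pretubular aggregate and renal vesicle genes against WT, filled where the adjusted p is under 0.05. In KO 9 are filled and all 9 lie above 0, in Het 2 above and 4 below, and in SmoM2 1, Sox9.

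Of 17 factors of nephron segments 9 were tested, and in KO against WT 3 rose and 3 fell, where 11.6% of all genes were called higher and 11.4% lower, with a median of 0.06 against 0.03. Irx3, a factor of the middle segments, was 1 of the 3 that rose. It passed the low-count filter through the KO libraries, so no test is given for it. Its fitted change was 3.60 (SE 0.70), from 0.373 CPM in WT to 4.50 in KO. The podocyte and stromal factor Tcf21 rose by 2.07. Foxd2, Lmx1b and Esrrg fell by 1.25, 0.55 and 1.47. The proximal factor Hnf4a had at most 6 counts in any library, and the distal factor Tfap2b had 0 counts in all of them. Of 16 genes of maturing nephrons 6 were tested, and in KO against WT none rose and 2 fell (11.6% and 11.4% of all genes), the podocyte genes Ptpro by 2.21 and Synpo by 1.33.

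Markers of other cells were measured beside these results. The 10 progenitor genes summed to 3827 to 4338 CPM in KO, 4690 to 5191 in Het, 3438 to 3648 in WT and 3699 to 3766 in SmoM2. The ureteric bud and duct list summed to 418 to 456 CPM in KO and 413 to 443 in WT, mostly from Mmp14, and the defining bud marker Wnt9b was at 0 in KO and at most 1 count in any library. Stromal markers summed to 539 to 1120 CPM in KO and 1218 to 1510 in WT, endothelial markers to 52.9 to 77.0 against 25.4 to 32.1, and erythroid markers to 17.6 to 61.3 against 5.03 to 7.19. The defining endothelial markers Pecam1, Cdh5 and Kdr had at most 3 counts in KO, and Cldn5 had 100 and 78. Plvap averaged 24.8 CPM in KO and 14.4 in WT, and Egfl7 16.5 and 9.26. Of 10 endothelial genes 4 were tested. In KO against WT 3 were called higher and 1 did not pass, where 11.6% of all genes were called higher. Immune markers summed to 14.2 to 26.8 CPM in KO and 33.3 to 33.5 in WT. Dissociation stress genes summed to 5865 to 7663 CPM in KO, 10150 to 10180 in Het, 3858 to 4148 in WT and 4287 to 6265 in SmoM2. In KO against WT 8 of 14 rose, where 11.6% of all genes were called higher. In Het against WT 10 of 14 rose, where 13.1% were called higher. The part of endothelial and erythroid RNA, of stress and of sex in the members' levels was not tested. In bulk RNA, more cells of a type and more RNA per cell cannot be told apart.

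**Figure D4:**
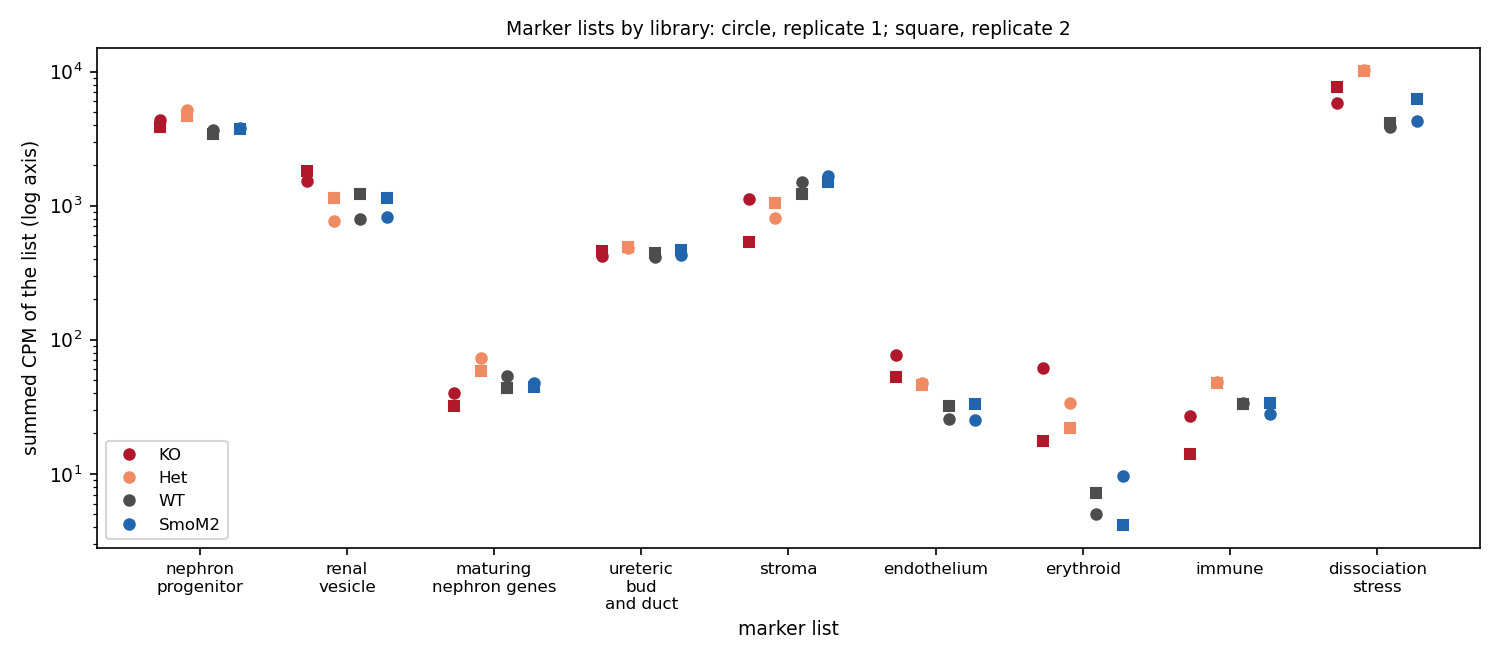
Summed CPM of 9 marker lists by library on a log axis, with replicates as circle and square. The renal vesicle list is highest in the 2 KO-labelled libraries, the stress list in the Het-labelled ones, and the endothelial and erythroid lists are higher in KO than in WT.

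Likeness to each member was measured as Pearson r of log2 CPM over the 8 libraries, among 12299 or 12300 genes with an average log2 CPM of at least 1, as a description, since libraries of a group share their label. The closest genes were Rcl1 (0.978) for Lhx1, Lig1 (0.985) for Pax8, Diras2 (0.982) for Emx2, Sugt1 (0.982) for Pou3f3 and Sh3bp4 (0.986) for Osr2. Among the members themselves, r was highest for Lhx1 with Osr2 (0.949) and lowest for Pax8 with Osr2 (0.688). The Lhx1-like gene Rcl1 was 60.3 CPM in KO and 37.5 to 40.0 in the other groups, against 92.3 and 5.43 to 7.78 for Lhx1 itself.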

How the data were processed

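Sorted nephron progenitors of 4 genotypes gave 8 RNA sequencing libraries, 2 per genotype. The authors deposited raw read counts per gene and RPKM values in a single table; per the submitters' processing notes, STAR, featureCounts, Subread and the mm10 genome were used, with no versions. The annotation, strand setting and filters are not given in the sources used here. Listed counts ran from 4422305 to 10305398 per library and made up 81.1% to 83.3% of the totals that the deposited RPKM imply. Emx2, Pou3f3 and Osr2 held at most 71 counts per library, which limits their precision.

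Counts were fitted in edgeR 4.0.16 (R 4.3.3) with the quasi-likelihood test, all 8 libraries, a mean per group, TMM scaling and filterByExpr (minimum count 10). This filter kept 13459 of 24539 genes, and the fit had 4 residual degrees of freedom. Its BCV, the spread between libraries of a group beyond counting error, was 13.5%. That spread may be technical, and it includes sex in the WT- and SmoM2-labelled groups. P-values were adjusted by Benjamini-Hochberg over all tested genes, threshold 0.05, two-sided. CPM uses TMM-scaled library sizes, and log2 CPM a prior count of 2. Values are mean ± SD. Intervals are exact 95% intervals of ratios of counts, covering counting error only, and the floor was 3 counts per library. With 2 libraries against 2 an exact permutation p cannot go below 0.333, so none is given. The members and lists were chosen with earlier results of these data known. Named genes are the members, Smo, genes of the lists and the 3 genes most like each member; 1 gene of the renal vesicle list is counted there but not reported here. Coordinates come from GENCODE M21, promoters from RefSeq GRCm38.p6. The scripts were checked on simulated data. Alternatives were DESeq2 1.42.0, no filter, RPKM totals, the groups compared alone, a replicate block, a sex covariate and leaving out each library.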

Additional observations from a re-analysis of the deposited data

How the results depend on the processing

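With every gene that had a count, the renal vesicle list gave 12 called genes in Het against WT, 5 in SmoM2 against WT and 13 in Het against SmoM2, and all genes gave 356 in SmoM2 against WT and 2217 in KO against Het. In SmoM2 against WT, RPKM totals called 0 list genes. Fitting the 2 groups alone called 8 genes and 0 list genes, the replicate block 54 genes, the sex covariate 54 genes and DESeq2 79 genes. Leaving out the Het-labelled libraries, an alternative chosen after seeing the data, called 0 list genes there. The cause was not tested. RPKM totals changed the split of calls: KO against Het had 937 higher and 511 lower in place of 583 and 686. DESeq2 gave 517 and 929 there, and RPKM totals gave KO against SmoM2 2779 and 1643 in place of 2218 and 2154. RPKM totals moved the median log2 change of all genes in KO against SmoM2 to 0.14 from 0.04. Differences between replicates correlated at 0.391 for WT with SmoM2, and at -0.061 to 0.1 for the other pairs of groups. In WT and SmoM2, replicate 1 was male and replicate 2 female. These values do not settle whether replicate numbers pair the samples. The block changed no member call, but the calls with KO follow from the choice of the genes.

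Leaving out a library gave 2409 to 4732 called genes in Het against SmoM2, 1401 to 3615 in Het against WT, 36 to 1472 in KO against Het, 2423 to 4440 in KO against SmoM2, 1304 to 2924 in KO against WT and 8 to 81 in SmoM2 against WT. The list gave 4 to 10, 3 to 8, 0 to 13, 7 to 15, 7 to 9 and 0 to 1 in the same order. In Het against SmoM2, the change of Lhx1 reversed to -0.08 with the sex covariate, and it ran from -0.23 to 0.75 without single libraries. That of Emx2 ran from -2.30 to 0.69 there, and that of Osr2 from -1.58 to 0.54, at 0.31 without Het replicate 1 and at 0.54 without SmoM2 replicate 2. Groups left with 1 library were assumed to vary like the others. Emx2 and Pou3f3 held between 0 and 8 counts per library outside KO, which limits the precision of their values there.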
